A study of Mus musculus with 10 samples.

Results

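Predicted genes are annotation entries named Gm and a number, given to gene models that have no other name. Among the 35663 entries of deposited FPKM values (fragments scaled to transcript length and library depth), 12581 were predicted genes. Of these, 208 were selected on their measured values: a highest FPKM of at least 5 over the 10 libraries, and a value of exactly 0 in at least 1 of them. Their levels and their on and off patterns are therefore described without a test, since the same values chose them.

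The RNA came from whole kidneys of E13.5 mouse embryos, labelled as strain C57/b6. There were 4 wild-type libraries, 3 Foxd1GC control libraries, labelled Foxd1-Cre, and 3 Ntn1SPKO libraries, labelled Foxd1-Cre; Ntn1c/c. The Foxd1GC allele makes Cre in the stromal progenitors of the kidney, and both the control and the Ntn1SPKO kidneys carry it. Ntn1SPKO kidneys therefore lose Ntn1 in the stroma while the other kidney cells keep the gene intact, and wild-type kidneys lack the Cre allele. The paper located Ntn1 transcripts in stromal progenitors and could not detect the protein in Ntn1SPKO kidneys. The Foxd1GC allele also costs the kidney a working copy of Foxd1, as the paper's discussion says. Comparisons with wild-type kidneys therefore also differ in Foxd1. The study describes its replicates as separate embryos from several litters, and the labels do not say which libraries share a litter. The p-values measure the spread between these libraries.

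As checks of the labels, Ntn1 was at 10.7 to 16.3 FPKM in Ntn1SPKO, 24.2 to 51.4 FPKM in control and 27.1 to 46.3 FPKM in wild-type libraries, and all 10 kidney markers examined were above 0 in every library. The kidney markers summed to 483 to 540 FPKM in Ntn1SPKO, 411 to 474 FPKM in control and 457 to 523 FPKM in wild-type libraries, so that the Ntn1SPKO libraries lay above all controls and overlapped wild-type. Not every marker followed the sum. Foxd1 was at 14.2 to 15.4 FPKM in Ntn1SPKO, 14.6 to 25.6 FPKM in control and 21.3 to 30.7 FPKM in wild-type libraries. Foxd1GC control replicate 3 stood apart, with Ret, the receptor of the ureteric bud, at 4.09 FPKM against 14.1 to 20.9 FPKM elsewhere and Calb1 at 16.4 against 57.4 to 74.9 FPKM. Y-linked genes also split the libraries: Ddx3y, Eif2s3y, Kdm5d and Uty summed to 88.6 to 98.1 FPKM in wild-type replicate 3, Foxd1GC control replicate 2 and all 3 Ntn1SPKO libraries, and to 0.210 to 1.02 FPKM in the other 5. All 4 skeletal muscle markers were above 0 in every library, and their sum was 12.6 to 23.1 FPKM in Ntn1SPKO, 25.5 to 253 FPKM in control and 35.7 to 65.4 FPKM in wild-type libraries, highest in Foxd1GC control replicate 3. All markers of erythroid, adrenal and gonad, liver and neural cells were above 0 in every library, with sums that overlapped between all groups. The part of these differences in the patterns of the predicted genes was not tested. In bulk RNA, fewer cells of a type and less RNA per cell cannot be told apart.

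Most predicted genes of this kind are pseudogenes. A processed pseudogene arises when the mRNA of a working gene is copied back into DNA and inserted elsewhere, so it carries the exons of its parent without introns and often without a promoter of its own. Young copies can be nearly identical to the parent, and a short read from such a stretch fits either gene. Quantification tools of the Salmon type divide such reads among the transcripts they fit by a statistical model, so the value of a copy is an estimate and can be 0 while the parent is abundant.

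The sequences that carry the findings show how close a member can be to a working gene. They are printed from GENCODE M21 (GRCm38), 5′ to 3′ on the strand of the gene, beside the same stretch of the parent's coding sequence, with capitals at positions where any copy differs from the parent. Kpna2 encodes an importin alpha, an adaptor of nuclear import, and Gm10184 (chr17:89908462-89910449, minus strand) and Gm10259 (chr3:25211016-25212605, minus strand) copy it.
Kpna2: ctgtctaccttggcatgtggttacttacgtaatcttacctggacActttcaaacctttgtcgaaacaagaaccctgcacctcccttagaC
Gm10184: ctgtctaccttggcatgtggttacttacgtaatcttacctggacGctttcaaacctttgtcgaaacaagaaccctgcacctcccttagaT
Gm10259: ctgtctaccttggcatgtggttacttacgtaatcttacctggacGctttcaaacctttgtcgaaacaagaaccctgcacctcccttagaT
Over these 90 bases, which begin at base 652 of the Kpna2 coding sequence, both copies carried A45G and C90T (the base of Kpna2, the position from 1 at the first base printed, then the base of the copy). Over all 1587 coding bases, Gm10184 differed from Kpna2 at 2 and Gm10259 at 3.

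Gm13597 (chr2:68554555-68554929, plus strand) matched all 372 coding bases of Tax1bp3, a small PDZ-domain protein gene, without a difference. The first 90 are printed for both, since Gm13597 was 1 of 3 members with 10 or more fragments that were at 0 in all Ntn1SPKO and above 0 in all control libraries.
Tax1bp3: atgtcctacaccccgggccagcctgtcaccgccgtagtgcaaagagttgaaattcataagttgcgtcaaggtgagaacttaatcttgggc
Gm13597: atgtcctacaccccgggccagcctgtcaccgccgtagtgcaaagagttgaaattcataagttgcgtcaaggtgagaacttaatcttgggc
Gm10039 (chr11:100361716-100362126, minus strand) differed at 1 of 408 coding bases from Atp5g1, a subunit of the mitochondrial ATP synthase. That base is the last one printed.
Atp5g1: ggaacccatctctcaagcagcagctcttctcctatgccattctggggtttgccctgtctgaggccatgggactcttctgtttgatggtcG
Gm10039: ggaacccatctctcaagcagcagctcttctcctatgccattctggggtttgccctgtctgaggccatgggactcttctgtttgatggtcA
Gm48583 (chr13:60641790-60642009, plus strand), the member with the highest FPKM, matched Rbm3, a cold-inducible RNA-binding protein gene, over all its 220 bases. The first 90 are printed, and the Rbm3 coding sequence has the same letters from base 240.
Gm48583: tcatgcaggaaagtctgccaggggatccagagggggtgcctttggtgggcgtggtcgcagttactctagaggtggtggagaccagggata

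Not all members were near copies. Gm11572 (chr11:97116796-97116915, minus strand) is 120 bases long and is shown whole, with the 72 bases in capitals that lie in 31-base words shared with Rps27, a protein gene of the small ribosomal subunit.
Gm11572: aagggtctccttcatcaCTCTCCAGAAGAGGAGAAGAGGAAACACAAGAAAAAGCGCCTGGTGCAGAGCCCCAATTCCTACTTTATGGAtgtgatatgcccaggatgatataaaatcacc
A word is here a run of 31 bases found in a transcript of another gene of the table, on either strand.

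Of the 208 members, 181 (87%) were annotated as pseudogenes, 157 of them as processed pseudogenes and 13 as unprocessed. A further 11 were annotated as protein coding and 16 had no entry of that symbol in GENCODE M21. Members were short: the 192 with an annotated transcript had a median length of 176.5 bases, and 156 of them (81.2%) were under 300 bases. The 252 predicted genes with a length that also reached 5 FPKM but stayed above 0 in every library had a median of 636 bases. Of the members with a position, 107 lay between genes, 62 within an intron of another gene, 13 overlapped an exon of another gene on the same strand and 10 an exon on the opposite strand.

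By the same criteria, few entries with another kind of symbol qualified. Of 474 predicted genes that reached 5 FPKM, 43.9% were at 0 in at least 1 library, against 35 of 10472 entries with any other symbol (0.334%). The other symbols at that level were longer, with a median of 3494 bases for those above 0 in every library.

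Chromosome 12 held 23 members, 12% of those with a position, against 5.6% of all predicted genes. Of the 444 predicted genes with a position that reached 5 FPKM, 11.5% lay there, so the share was not particular to the members. Of the 23, 17 lay within 6.26 megabases at chr12:17993133-24252181, a stretch that holds 124 predicted genes, 32 of which reached 5 FPKM. The 17 were 101 to 217 bases long, 11 of them were never estimated above 3 fragments, and 0 reached 10. Gm49330 (chr12:17993133-17993258), an unprocessed pseudogene of this stretch, shared 100% of its words with other genes and 71.9% with Gm48398, another member in the same stretch. It had 1, 4, 2 and 2 fragments in wild-type, 7, 5 and 2 in control and 3, 2 and 0 in Ntn1SPKO replicates, and its highest value of 45.9 FPKM was 7 fragments.

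Nearly every value could be turned back into a whole number of fragments. Low FPKM values of genes with 1 annotated transcript were whole multiples of a step that depended on the transcript's length and on the library. For predicted genes, 20728 of 20836 values (99.5%) of up to 50 fragments came out whole within 0.05 fragments, a tolerance that covers 10% of the unit. The step by length was fitted on 3075 genes whose own values were whole multiples of a step. Those genes were not left out of the scoring, so the share is partly set by the fit. These whole numbers rest on Salmon estimates and are not counted reads. At which step they became whole is not given in the sources used here, so a 0 may be a rounded estimate.

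What 1 fragment was worth fell steeply with length. At 150 bases it was 5.11 to 6.14 FPKM over the 10 libraries, at 200 bases 3.19 to 3.83 FPKM, at 400 bases 0.209 to 0.251 FPKM and at 2000 bases 0.0180 to 0.0217 FPKM. A predicted gene of 150 bases therefore met the 5 FPKM rule with 1 fragment.

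**Figure D1:**
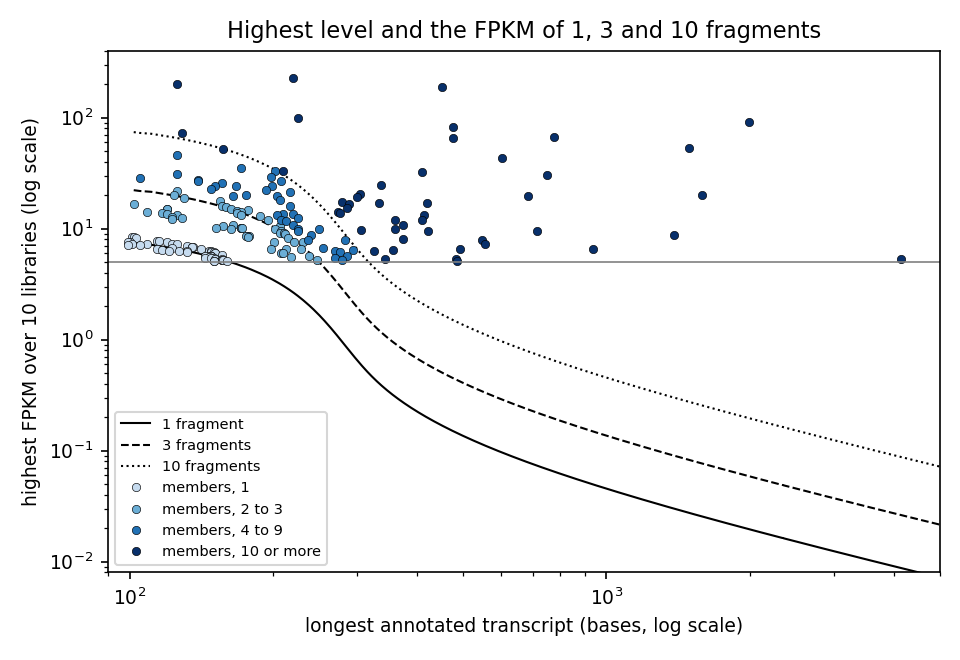
Highest FPKM over the 10 libraries (vertical, log scale) against the longest annotated transcript in bases (horizontal, log scale) for the 192 members with a length, coloured by their highest number of fragments. Black lines give 1, 3 and 10 fragments at the mean step over libraries and the grey line the 5 FPKM limit, and the members with 1 fragment lie along the 1-fragment line, at 99 to 160 bases.

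Most members rested on very few fragments. In their best library, 53 members had 1 fragment, 59 had 2 to 3, 45 had 4 to 9 and 50 had 10 or more, and Gm5823 (highest value 74.3 FPKM, no annotated transcript) could not be resolved. A count of 0 allows up to 3 fragments at 95% confidence. By these estimates, 112 members (53.8%) never rose above that limit and could not be told on from off in any single library at this depth. This limit covers counting error only and not the error of dividing shared reads. For 20 members without a usable length the step came from their own values, so their fragment numbers are the least possible. Some of these are among the 112 and may have had more than 3 fragments. For 6 members with several transcripts the numbers are approximate.

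The fragment number went with length and with the number of libraries at 0. Members with 1 fragment were 99 to 160 bases long and were at 0 in a median of 9 libraries. Those with 10 or more had a median length of 411 bases, up to 4139, and were at 0 in a median of 3.5 libraries. Of the 47 members above 0 in exactly 1 library, 42 were never estimated above 3 fragments.

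**Figure D2:**
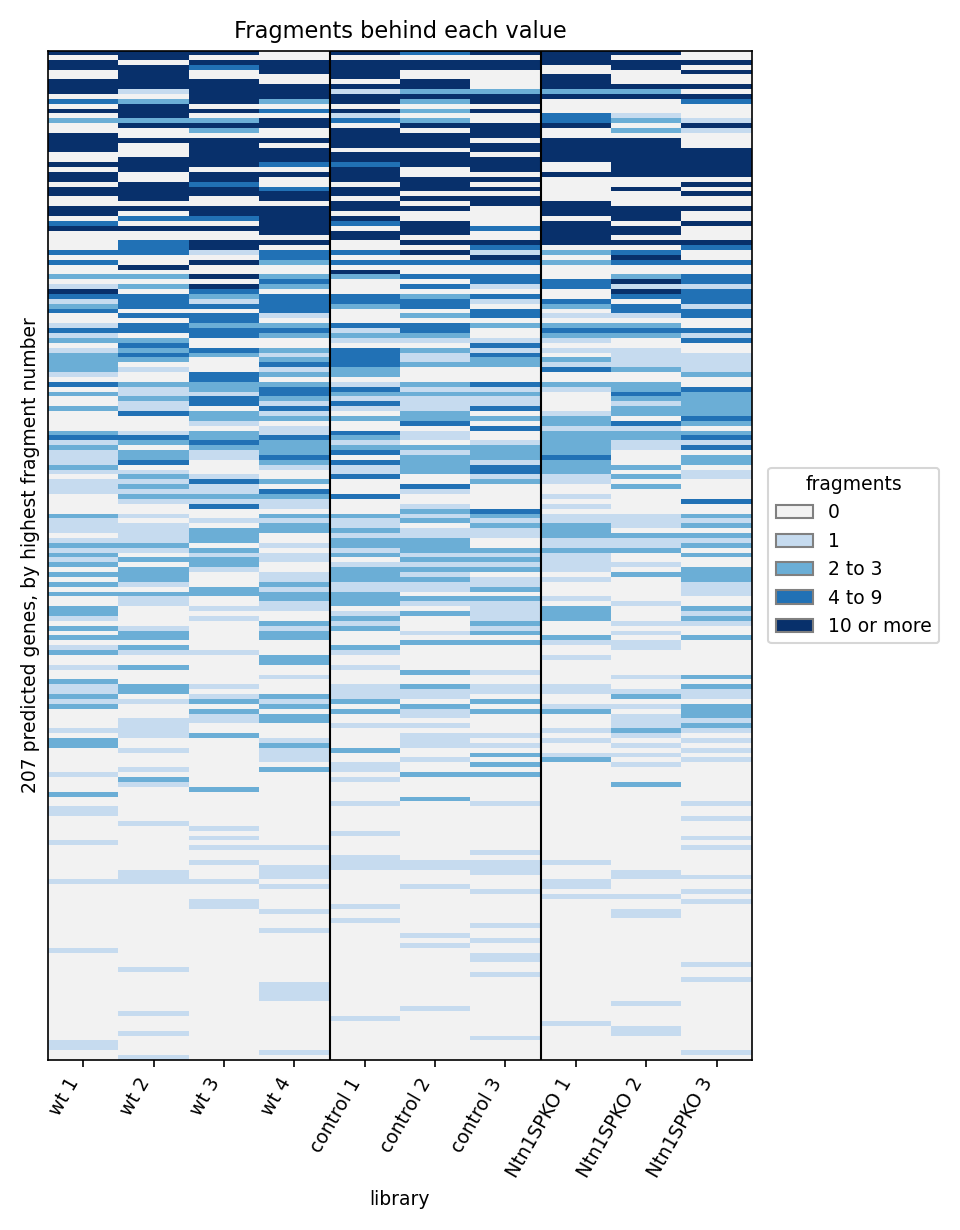
Each line is 1 of the 207 members with resolved fragments, ordered from the highest fragment number (top) to the lowest, and each column 1 library, with black lines between the groups (wt, wild-type). Shades run from 0 (light grey) to 10 or more fragments (darkest blue), and gaps at 0 occur in all 10 libraries, also among the 50 members with 10 or more.

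Shared sequence went with fragment number as well. Over the 192 members with a transcript, the median share of 31-base words found in another gene was 57.8%, and 108 members shared 50% or more. Members with 10 or more fragments had a median of 94.5%, 43 of 47 shared 50% or more and 0 shared none. Members with 1 fragment had a median of 31.9%, and 7 of 51 shared none. The 252 predicted genes that stayed above 0 in every library had a median of 78.4%, and 186 of them shared 50% or more. High sharing was thus not particular to the members. These shares were computed on GENCODE M21 transcripts, which may differ from the index that the authors used.

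Between 94 and 115 of the 208 members were at 0 in any library. Members at 0 numbered 112, 104, 111 and 94 in wild-type replicates 1 to 4, 100, 105 and 106 in Foxd1GC control replicates 1 to 3, and 115, 113 and 111 in Ntn1SPKO replicates 1 to 3. The ranges of wild-type and control libraries overlapped, as did those of Ntn1SPKO and wild-type. All Ntn1SPKO values lay above all control values, at 53.4% to 55.3% against 48.1% to 51% of the members. A value of 0 was part of the rule, and the share of all entries at 0 in each library is not given here. Nothing is therefore read from this order. Members summed to 0.128% to 0.197% of all FPKM in a library. Depth on the deposited scale, from the steps, was 26.4 to 31.7 M fragments.

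In each group, 103 to 140 of the 208 members were above 0 in some libraries and at 0 in others, here called mixed. In wild-type kidneys 36 members were above 0 in all 4 libraries, 32 were at 0 in all 4 and 140 were mixed. In Foxd1GC control kidneys 55 were above 0 in all 3, 50 at 0 in all 3 and 103 mixed. In Ntn1SPKO kidneys 38 were above 0 in all 3, 57 at 0 in all 3 and 113 mixed. Groups of 3 and of 4 libraries differ in how easily a member can be mixed, so these counts are not compared between wild-type and the others. Among the 50 members with 10 or more fragments, 32, 29 and 30 were mixed in wild-type, control and Ntn1SPKO kidneys.

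Libraries of 1 group differed in on and off state about as much as libraries of different groups. Over the 12 pairs of libraries from 1 group, 65 to 80 of the 208 members (median 76) were above 0 in 1 library and at 0 in the other. Over the 33 pairs from different groups, the number was 62 to 91 (median 78). For the 50 members with 10 or more fragments the medians were 18.5 and 20. Pairs share libraries, so no test was made. There were 138 distinct patterns over the 10 libraries, and 109 members had a pattern that no other member had.

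**Figure D3:**
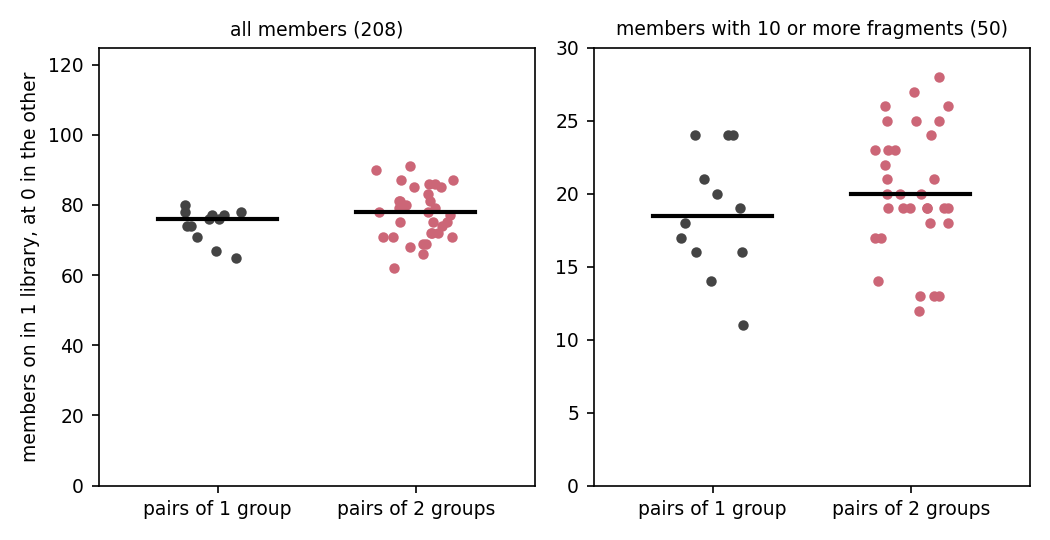
Number of members above 0 in 1 library and at 0 in the other (vertical) for each pair of libraries, with pairs from 1 group in grey and from 2 groups in red and a bar at the median. All 208 members are on the left and the 50 with 10 or more fragments on the right, and the clouds of 1 group (65 to 80) and of 2 groups (62 to 91) overlap on the left.

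Few members were absent from a whole group and present in all libraries of another. At 0 in all 3 Ntn1SPKO and above 0 in all 3 Foxd1GC control libraries were 4 members, Gm13597, Gm10039, Gm21742 and Gm11572 (1.92% of the 208), and 0.0365% of the 10946 entries of any name that reached 5 FPKM had that pattern. In the other direction there was 1 member, Gm35857 (0.481%, background 0.00914%). At 0 in all Ntn1SPKO and above 0 in all 4 wild-type libraries were 3 members, Gm10039, Gm49286 and Gm8129 (1.44%, background 0.0365%). The background entries were these members themselves and, in the last case, also Polr2k-ps. A value of 0 is needed for the pattern and was part of the rule, so nothing is read from these shares. The converse, and either direction between Foxd1GC control and wild-type kidneys, held for 0 members, with a background of 0% each. No other member shared the 10-library pattern of any of these 7. A pattern over fewer libraries is easier to meet: the count between Ntn1SPKO and Foxd1GC control, 5 in both directions, was 13, 8 and 10 without Ntn1SPKO replicates 1, 2 and 3 and 11, 9 and 7 without control replicates 1, 2 and 3. The count between Ntn1SPKO and wild-type, 3, was 7, 5 and 8 without Ntn1SPKO replicates 1, 2 and 3, 5 without wild-type replicate 3 and 3 or 4 without another wild-type library. Between control and wild-type it went from 0 to between 1 and 5 without any 1 library. Skeletal muscle marker sums, given above, were also lowest in the Ntn1SPKO libraries, and all 3 Ntn1SPKO libraries, against 1 control and 1 wild-type library, were high in Y-linked genes. Their part was not tested.

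Gm13597, the Tax1bp3 copy, was at 10.8, 0, 9.01 and 0 FPKM in wild-type replicates 1 to 4, at 8.16, 10.7 and 7.83 FPKM in the controls and at 0 in all 3 Ntn1SPKO libraries. In fragments this was 43, 0, 35 and 0, then 30, 41 and 26, then 0. Wild-type replicates 2 and 4 were at 0, and the wild-type group overlapped both others. Tax1bp3 itself was at 40.7 to 49.0 FPKM in wild-type, 43.5 to 49.5 in control and 41.2 to 47.1 in Ntn1SPKO libraries, which overlap. Added to Gm13597 as plain FPKM, the highest over the lowest library went from 1.22 for Tax1bp3 alone to 1.43 for the sum. Weighted by transcript length the sum ranged 1.24-fold, and in estimated fragments 1.23-fold. Gm13597 held at most 1.31% of the fragments of the pair. The log2 difference of Tax1bp3 between Ntn1SPKO and control was −0.06 (standard error 0.08, limma adjusted p = 0.734).

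Gm10039, the Atp5g1 copy, was at 18.9, 13.9, 32.2 and 0.848 FPKM in wild-type replicates 1 to 4, at 25.4, 0.405 and 32.3 FPKM in the controls and at 0 in each Ntn1SPKO library. The low values were 4 fragments in wild-type replicate 4 and 2 fragments in Foxd1GC control replicate 2, against 68 to 161 in the other 5 libraries with the gene. Of these low values, 1 lay under and 1 just above the 3 fragments that a 0 in an Ntn1SPKO library allows. Atp5g1 was at 146 to 162 FPKM in Ntn1SPKO and 151 to 168 FPKM in control libraries (log2 difference −0.07, standard error 0.07, limma adjusted p = 0.642).

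The 4 other group patterns, leaving out Gm21742, were built from 1 to 4 fragments. Gm11572, the ribosomal fragment printed above, had exactly 1 fragment in each control library and in wild-type replicate 4, and 0 in the 6 other libraries. Gm35857 (chr8:72531031-72531208, within an intron of Med26) had 1, 2 and 1 fragments in the Ntn1SPKO libraries, 1 in each of wild-type replicates 1 and 2, and 0 elsewhere. Gm49286 (chr15:3991994-3992095, 102 bases, overlapping an exon of AW549877 on the same strand) had 1, 1, 2 and 1 fragments in wild-type, 2, 0 and 2 in control and 0 in Ntn1SPKO libraries. Gm8129 (chr6:52346730-52346942), which shares 83.1% of its words with the ribosomal protein gene Rpl38, had 1, 1, 1 and 4 fragments in wild-type, 0, 1 and 0 in control and 0 in Ntn1SPKO libraries. Apart from the 4 fragments of Gm8129 in wild-type replicate 4, all of these lay within what a 0 in 1 library allows, and no fold is given. That limit holds for a single library, so it does not settle whether the groups differ, which was not tested.

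**Figure D4:**
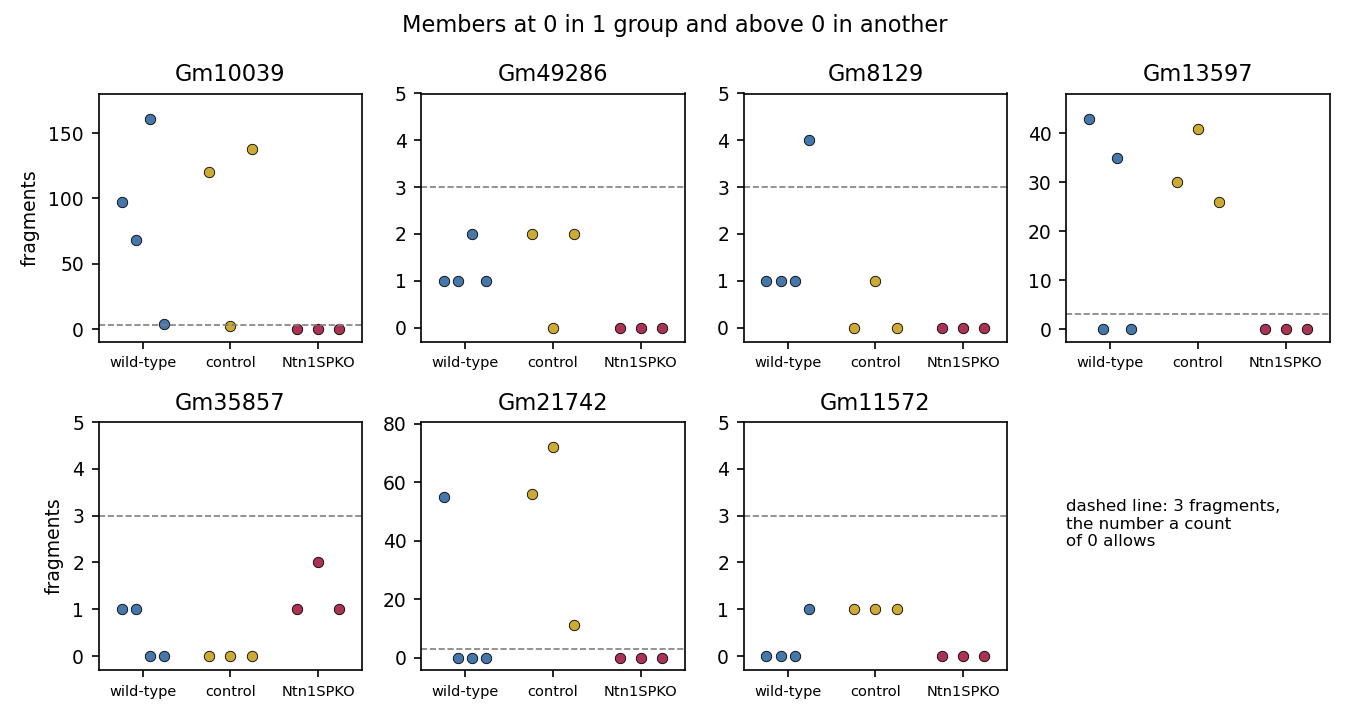
Estimated fragments in each library (points, vertical, separate scales) for the 7 members at 0 in all libraries of 1 group and above 0 in all of another, by group. The dashed line marks 3 fragments, and Gm49286, Gm35857 and Gm11572 lie at or under 2 fragments in all 10 libraries.

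The limma fit over all genes on log2(FPKM + 0.1), with a call at an adjusted p under 0.1 and at least a 2-fold change, called 8 of 14550 genes (0.055%) between Ntn1SPKO and Foxd1GC control, 7 of 14432 (0.0485%) between Ntn1SPKO and wild-type and 1 of 14594 (0.00685%) between Foxd1GC control and wild-type. Members made up 3, 2 and 0 of these calls: Gm13597, Gm11572 and Gm35857 in the first and Gm49286 and Gm8129 in the second. The rule chose members for having both a high value and a 0, so these calls are no evidence about them. Except for Gm13597, each called member had at most 4 fragments in any library. With all 10 libraries in one fit, 0 genes were called in each comparison (1603, 630 and 1506 at an unadjusted p under 0.05). Leaving out 1 library moved the first count to 78 without Foxd1GC control replicate 2, to 16 and 20 without control replicates 1 and 3, and to 21 and 3 without Ntn1SPKO replicates 1 and 2. It moved the second count to 17 and 20 without wild-type replicates 3 and 4 and to 19 and 1 without Ntn1SPKO replicates 1 and 2, and the third to 10, 20 and 3 without control replicates 1, 2 and 3 and to 7, 4, 7 and 3 without wild-type replicates 1 to 4.

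Partner genes, whose own levels the rule did not use, gave no call. Their levels are not free of the selection, since reads shared with a member are divided between the 2 genes. So few of all genes were called that nothing is read from the lack of calls. A partner is the gene outside the members that shares the most words with a member, and 175 members had one, 143 distinct genes in all. Of the partners tested by limma, 0 of 114 were called between Ntn1SPKO and Foxd1GC control (21 at an unadjusted p under 0.05), 0 of 114 between Ntn1SPKO and wild-type (2) and 0 of 113 between Foxd1GC control and wild-type (5), against 0.055%, 0.0485% and 0.00685% of all genes. At an unadjusted p under 0.05 the shares were 18.4%, 1.75% and 4.42% of the partners and 10.7%, 5.76% and 7.06% of all genes tested. Without Foxd1GC control replicate 2, 1 partner was called in the first comparison.

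The 10 members with the highest values reached 67.4 to 228 FPKM, and each was at 0 in 1 to 5 libraries. Of these, 9 are described here. Gm48583, the Rbm3 copy within an intron of Dapk1, had the highest value. It was at 0, 228, 178 and 110 FPKM in wild-type, 0, 151 and 119 FPKM in control and 90.1, 0 and 179 FPKM in Ntn1SPKO replicates. Each group thus held a library at 0 and a library at 151 FPKM or more. In fragments the highest was 88, while Rbm3 was at 373 to 576 FPKM in every library.

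Gm16550 (chr1:165148824-165148949, within an intron of Tbx19) is a 126-base copy that shares 99.0% of its words with the co-chaperone gene Dnajc9. It was at 48.3, 0, 0 and 72.2 FPKM in wild-type, 45.9, 100 and 0 FPKM in control and 64.8, 0 and 201 FPKM in Ntn1SPKO replicates. Its highest value stood for 28 fragments, and each group held libraries at 0 and at 45.9 FPKM or more. Gm43110 (chr5:22472767-22472992), identical in all its words to Get4, a gene of tail-anchored protein delivery, was at 40.7, 80.9, 41.9 and 51.7 FPKM in wild-type and at 24.6, 0 and 0 FPKM in control replicates. In Ntn1SPKO replicates it was at 0, 0 and 99.7 FPKM, so that the highest and the lowest value over all libraries fell in the same group.

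Gm8325 (chr3:60877014-60877587), an 80.2% copy of the ubiquitin-conjugating enzyme variant gene Ube2v1 by shared words, was at 0 in wild-type replicate 2 only. Its other 9 libraries were at 49.9 to 187 FPKM, and Ube2v1 was at 228 to 284 FPKM in all 10. Gm48789 (chr9:75520374-75520502, within an intron of Tmod3) shares 79.8% of its words with Ndufab1, the mitochondrial acyl carrier protein gene, and was at 0 in Ntn1SPKO replicate 1 only. Its 73.0 FPKM in wild-type replicate 3 was 12 fragments, and the 8 other libraries had 2 to 7. Gm50083 and Gm5823, which had no entry in GENCODE M21, were at 0 only in wild-type replicate 1 and only in Foxd1GC control replicate 2, with highest values of 188 and 74.3 FPKM. Gm50083 was at 36.8 FPKM or more in its 9 other libraries. Gm5823 was also at 0.553 FPKM in wild-type replicate 1 and 0.120 FPKM in control replicate 1, and at 35.3 to 74.3 FPKM in the other 7 libraries.

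Gm9531 (chr9:81677598-81678677) shares 97.4% of its words with Set, a histone chaperone gene. It was at 0.811, 4.86, 0.584 and 51.1 FPKM in wild-type, 37.3, 1.26 and 67.4 FPKM in control and 0, 28.1 and 0 FPKM in Ntn1SPKO replicates. Low and high values stood side by side in all 3 groups. Set was at 638 to 968 FPKM and its lowest library was Foxd1GC control replicate 3, the library with the highest Gm9531. By estimate, Gm9531 held at most 2.13% of the fragments of the pair. Set ranged 1.52-fold alone and 1.47-fold with Gm9531 added by transcript length. Control replicate 3 also stood apart in the kidney markers, and Kpna2 was lowest there too.

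Gm10184, the Kpna2 copy with the higher value, is 1988 bases long and is annotated as protein coding. It was at 75.03, 60.3, 92.2 and 0 FPKM in wild-type, 61.0, 0.152 and 49.8 FPKM in control and 1.53, 0.489 and 0 FPKM in Ntn1SPKO replicates. Kpna2 was at 115, 125, 121 and 187 FPKM in wild-type, 101, 184 and 82.2 FPKM in control and 179, 186 and 193 FPKM in Ntn1SPKO replicates. The 5 libraries with Gm10184 at 49.8 FPKM or more were the 5 with Kpna2 at 82.2 to 125 FPKM, and Kpna2 was at 179 to 193 FPKM in the others. Added to Gm10184 and to Gm10259 (named after its values were seen), which reached 20.1 FPKM in wild-type replicate 2, the sum was 132 to 213 FPKM, so the highest over the lowest library went from 2.35 for Kpna2 alone to 1.62 for the 3 together. Kpna2 differed by a log2 of 0.69 between Ntn1SPKO and control (standard error 0.28, limma adjusted p = 0.447) and by 0.47 between Ntn1SPKO and wild-type (standard error 0.16, adjusted p = 0.729), neither of which passes the threshold. Gm10184 was at 1.53 FPKM or less in all Ntn1SPKO libraries, and so were wild-type replicate 4 and Foxd1GC control replicate 2.

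Gm45837 also held a large part of the fragments of its pair, up to 59.4%. Its partner is Pde2a, a cyclic nucleotide phosphodiesterase gene, and the pair was chosen after its values were seen. They overlap at the same place (chr7:101410886-101512819 and chr7:101421691-101512827), and Gm45837 shares 95.6% of its words with Pde2a. Gm45837 was at 5.29 FPKM in Ntn1SPKO replicate 1, 1.38 in control replicate 1, 0.929 in wild-type replicate 2 and 0 in the 7 others. Pde2a was at 3.59 FPKM in Ntn1SPKO replicate 1 and at 7.35 to 10.05 FPKM in the others. The sum ranged 1.37-fold, against 2.80-fold for Pde2a alone. Sums were not narrower in all such pairs. Gm45080 reached 46.8% of the fragments of its pair with Gm12657, which ranged 3.16-fold alone. With the member added it ranged 4.502-fold by transcript length and 5.25-fold as a plain FPKM sum, but 3.12-fold in estimated fragments. Gm4613 reached 39.8% with Gm4149, which ranged 5.28-fold alone and 5.66-fold with it by each of these measures. Both pairs were also named after their values were seen.

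**Figure D5:**
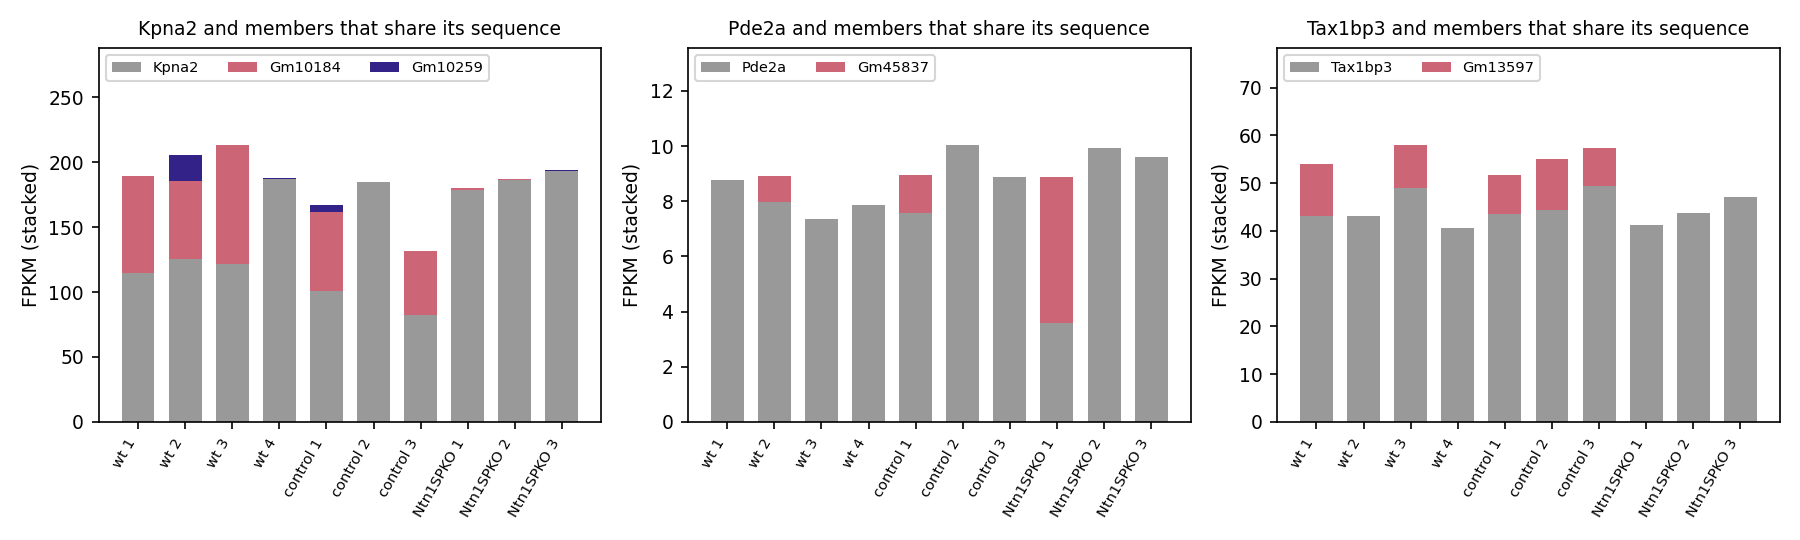
FPKM (vertical, from 0) stacked for 3 genes (grey) and the members that share their sequence (red and blue) in each of the 10 libraries. Kpna2 with Gm10184 and Gm10259 and Pde2a with Gm45837 reach more even totals than the grey bars alone. Gm13597 adds 7.83 to 10.8 FPKM to Tax1bp3 in 5 libraries and 0 in the others, which makes the plain FPKM total less even. Weighted by transcript length, that total ranged 1.24-fold against 1.22-fold for Tax1bp3 alone.

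Where a partner shared 50% or more of a member's words, as for 90 members, it was mostly far more abundant, as far as fragments could be estimated. In 69 of these 90 pairs the member never made up 3% of the fragments. The fragments and length of a partner were taken from its longest annotated transcript. The member's share is too low where shorter transcripts of the partner were expressed. Of the 90 members whose partner shared 50% or more of their words, the 42 with 10 or more fragments included 35 that never made up 3% of the fragments of the pair and 5 that reached 10%. The median range of the partner over the 10 libraries was 1.50-fold for these 42 alone and 1.47-fold with the member added by transcript length, but 1.65-fold as a plain FPKM sum. Over all 90 pairs it was 1.55-fold alone and 1.57-fold with the member added by length. Pairs with no range, because of a library at 0, were ranked as widest in these medians, and the partner was at 0 somewhere in 2 of the 42 and 11 of the 90. The sum by length had the narrower range in 16 of the 42 pairs and 25 of the 90, and the member reached 10% of the fragments in 18 of the 90. The 5 and the 18 include the 2 and the 11 pairs whose partner was at 0 somewhere, where the member held 100% of the fragments. Ribosomal protein genes of either subunit were the partner of 10 of the 90.

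Members above 0 in only 1 library included copies of abundant genes too. Gm13835 (chr6:31141979-31142663, within an intron of Lncpint), identical in its words to the proteasome subunit gene Psma3, was at 19.5 FPKM, or 256 fragments, in wild-type replicate 2 and at 0 in all 9 others. Psma3 was at 526 to 870 FPKM. Gm45403 (chr7:9918868-9919143), which shares 86.2% of its words with the formin gene Diaph3, had 14 fragments (13.8 FPKM) in wild-type replicate 2. Gm49011 (chr14:79105709-79105879, within an intron of Vwa8), identical in its words to the sarcosine dehydrogenase gene Sardh, had 8 fragments (35.3 FPKM) in wild-type replicate 3. Gm26712 (chr6:57689433-57689649), which overlaps an exon of Pyurf on the same strand, had 6 fragments (15.9 FPKM) in the same library. Reads of such overlapping genes, Gm49286 and Gm45837 included, cannot be told apart where the exons coincide. Gm14287 (chr2:157528869-157528985), a copy of the adaptor gene Ywhaz by 89.7% of its words, had 2 fragments (13.9 FPKM) in wild-type replicate 4. All 5 of these were on in a wild-type library. Over all 47 such members, the library was wild-type replicate 1 to 4 for 8, 6, 4 and 6, control replicate 1 to 3 for 5, 4 and 7 and Ntn1SPKO replicate 1 to 3 for 1, 3 and 3.

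Of the 2 members annotated on the Y chromosome, 1 followed the split by Y-linked genes and 1 did not. Gm18665 (chrY:1277313-1277582, within an intron of Ddx3y), named after its values were seen, was above 0 in exactly the 5 libraries where Y-linked genes were high, with 1 fragment in wild-type replicate 3, 5 in control replicate 2 and 3, 4 and 3 in the Ntn1SPKO replicates. No other member had that pattern. Gm21742 (chrY:90837413-90844040) did not follow it. It had 55, 0, 0 and 0 fragments in wild-type, 56, 72 and 11 in control and 0 in all Ntn1SPKO replicates. Y-linked genes were high in control replicate 2, which held the 72 fragments, and in wild-type replicate 3 and all Ntn1SPKO libraries, at 0. They were low in the other libraries, of which wild-type replicates 2 and 4 were also at 0. It shares 96.7% of its words with Mid1-ps1, another Y-annotated pseudogene, which reached 1.94 FPKM. Mid1, the ubiquitin ligase gene these pseudogenes are named for, lies on the X chromosome and was at 9.45 to 22.6 FPKM. Whether the reads given to Gm21742 came from the Y chromosome was not tested, so its values are no sign of Y-linked expression.

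Values on both sides of the 5 FPKM limit were close. Just inside were Gm13392 and Gm20167, both at 5.11 FPKM in wild-type replicate 1 alone, and Gm48048, at 5.12 FPKM in Foxd1GC control replicate 2 and 0 in 6 libraries. Just outside were Gm48333 at 4.94, Gm11852 at 4.93 and Gm46611 at 4.93 FPKM, at 0 in 1, 7 and 4 libraries.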

How the data were processed

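Total RNA of whole E13.5 kidneys was sequenced, and per the paper's methods and the submitters' processing notes the authors demultiplexed with bcl2fastq 2.17.1.14 and ran Salmon on an index that the methods describe as coding sequences (GRCm38, mm10), although the table also lists pseudogenes, importing the estimates with tximport and testing with DESeq2. The deposited values are FPKM made by the authors, 1 column per library. How FPKM was computed is not given in the sources used here. The authors' own index was not used here.

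The members and all lists were chosen with earlier results of these data known. Groups came from the sample labels. Names, positions and lengths came from GENCODE M21 (GRCm38), which matched 192 of the 208 members. The step of 1 fragment was fitted per library and length in Python 3.11.15 (pandas 2.3.3, NumPy 2.4.6; figures with matplotlib 3.10.9) and tested on simulated data. Words of 31 bases were compared on either strand. Limma 3.58.1 (R 4.3.3, intensity trend) was run for 2 groups at a time on log2(FPKM + 0.1) of each gene averaging 0.5 FPKM or more, and p-values were adjusted by the Benjamini-Hochberg method over all genes tested. FPKM are not counts, so no count test was the main result. Named were members at 0 in all of a group and above 0 in all of another, the 10 highest, the 5 highest at 0 in exactly 1 library and above 0 in exactly 1, their partners, and 3 on each side of the limit. The partner of 1 named member, and the results that need it, are not reported here.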

Additional observations from a re-analysis of the deposited data

Results flagged for a closer look

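In the 4 wild-type libraries, the distance of the highest or lowest library to the nearest of the others, as a share of the whole range, was compared with Dixon's 95% critical value for 43 named members and partners, and 17 were above it. Chance alone gives about 1 in 20, and the members were chosen for values of this kind. For Gm21742, Gm11572, Gm49011, Gm13835, Gm26712, Gm14287 and Gm45403 the share was 1, since 3 of the 4 libraries were at 0. It was 0.985 for Gm8129, 0.916 for Gm49286, 0.915 for Gm9531 and 0.904 for Gm48789. Among the partners it was 0.922 for Ndufab1, 0.921 for Mid1-ps1, 0.889 for Rpl38, 0.871 for Dnajc9, 0.857 for Kpna2, which was highest in wild-type replicate 4, and 0.852 for Pyurf. Ndufab1, Rpl38, Dnajc9 and Pyurf were highest in wild-type replicate 3, whose FPKM values also summed to more than those of any other library.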

How the results depend on the processing

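Of 148 alternatives to 15 results, 93 stayed within the limits set for each and 55 moved. A highest value of at least 2 or 10 FPKM in place of 5 gave 415 or 97 members instead of 208, and leaving out 1 library gave 189 to 201. With at least 10 FPKM, the members split by group between Ntn1SPKO and control were 2 instead of 5, and with at least 2 FPKM those between control and wild-type were 1 instead of 0. Without 1 library these counts were 7 to 13 (Ntn1SPKO and control), 3 to 8 (Ntn1SPKO and wild-type) and 1 to 5 (control and wild-type). The median share of words was 71.2% with 21 bases, 37.4% with 51 and 54.3% with the longest transcript of each gene, and 49 members shared 90% or more. Over the 90 pairs, with those at 0 in some library ranked as widest, the median range of member and partner was 1.57-fold by length, 1.84-fold as a plain FPKM sum and 1.55-fold in estimated fragments, an alternative chosen after seeing the data.

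Genes called by limma between Ntn1SPKO and control (8) were 21 without a filter, 0 with all 10 libraries in one fit and 3 to 78 without 1 library. Between Ntn1SPKO and wild-type (7) they were 2 with a pseudocount of 1, 18 without a filter, 12 without the intensity trend, 0 with all 10 libraries and 1 to 20 without 1 library. Between control and wild-type (1) they were 2 with a pseudocount of 1 or 0.01, 9 without a filter, 4 without the trend, 0 with all 10 libraries and 3 to 20 without 1 library. Partner genes called were 0 to 1 without 1 library between Ntn1SPKO and control and 0 in the other comparisons. The cause of these moves was not tested.

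With the replicate number as a block, 4, 6 and 1 genes were called in the 3 comparisons. Deviations of libraries with the same number correlated at −0.04 to 0.08, so the numbers were not taken to pair the libraries. Depth is a limit for 112 of the 208 members, estimated at no more than the 3 fragments that a 0 allows. For those without a usable length the estimate is the least possible.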
